A study of Mus musculus with 4 samples.

Results

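The genes described are 10 mouse genes of the acrosome and of gamete fusion, namely Acr, Acrbp, Spaca1, Spaca3, Spaca4, Spaca7, Zpbp, Zpbp2, Izumo1 and Dpy19l2. They were listed by name, for their role in the sperm head, with earlier results of these data known. They are 10 of the genes behind 37718 gene rows of the deposited counts, and all 10 were found in all 4 libraries. RNA came from cells sorted from mouse testis at 20 days post partum (dpp), as 2 libraries of Tdrd6+/- and 2 of Tdrd6-/- cells, each pooled from at least 4 mice. TDRD6 is a tudor domain protein of the chromatoid body, a cytoplasmic RNA granule of male germ cells, and the comparison asks how splicing and RNA levels differ without it. The heterozygotes served as controls, so there was no library with both Tdrd6 alleles intact. Both genotypes carried human CD4 (hCD4) expressed from the endogenous Tdrd6 promoter, and the cells were caught by magnetic beads against hCD4. The sort therefore takes any cell in which this promoter is active, which the study gives as mostly, but not entirely, diplotene spermatocytes.

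The acrosome is a membrane-bound cap of enzymes and binding proteins that forms over the nucleus of the haploid spermatid and opens at the egg. Many genes for the acrosome are transcribed in meiosis, before there is an acrosome, and their mRNA is kept for use in spermatids. Fusion with the egg needs further proteins at the sperm surface, of which IZUMO1, the ligand of the egg receptor JUNO, is the best known.

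Promoter sequence was available from RefSeq (GRCm38.p6) for 9 of the 10 genes, all but Acr. The 250 bases before the start are shown for Izumo1, since it held the full cAMP response element TGACGTCA, the palindromic site known for factors of the CREB and CREM family, and for Zpbp2 and Dpy19l2, the genes with the highest levels per kb. Capitals mark the motif. All are written 5′ to 3′ on the strand of the gene, plus for Izumo1 (chr7:45621561-45621810) and Zpbp2 (chr11:98550847-98551096) and minus for Dpy19l2 (chr9:24696294-24696543).
Izumo1: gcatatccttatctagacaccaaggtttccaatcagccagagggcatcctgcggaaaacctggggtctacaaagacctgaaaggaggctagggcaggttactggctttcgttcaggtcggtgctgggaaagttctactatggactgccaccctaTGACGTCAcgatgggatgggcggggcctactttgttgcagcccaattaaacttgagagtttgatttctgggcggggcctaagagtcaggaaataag
Zpbp2: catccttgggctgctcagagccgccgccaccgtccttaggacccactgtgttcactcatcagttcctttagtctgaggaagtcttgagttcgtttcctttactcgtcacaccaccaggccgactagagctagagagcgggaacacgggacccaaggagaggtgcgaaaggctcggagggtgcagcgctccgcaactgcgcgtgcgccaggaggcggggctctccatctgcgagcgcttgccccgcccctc
Dpy19l2: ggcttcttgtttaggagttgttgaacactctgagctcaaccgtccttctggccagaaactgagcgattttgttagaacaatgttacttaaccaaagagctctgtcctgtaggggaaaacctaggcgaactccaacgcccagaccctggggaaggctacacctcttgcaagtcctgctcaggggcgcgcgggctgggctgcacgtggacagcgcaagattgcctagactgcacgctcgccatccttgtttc

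Letters were searched on both strands of these 250 bases. TGACGTCA was found in Izumo1 alone of the 9 genes, and in 1.55% of 32851 promoters in the RefSeq table. The shorter TGACGT, which TGACGTCA contains, was found in Izumo1 and Acrbp and in 6.47% of all promoters. GTTGCC, a part of the X box known for RFX factors, was found in Acrbp and in 10.4% of all promoters. A match is a description of the letters, and Spaca1 and Spaca3 each had a second listed start, which held none of the 3 motifs.

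Depth was 26454326 to 31388750 gene counts and 9603669 to 13937818 intron counts per library. Tdrd6 had 1269 and 1412 CPM (counts relative to library size after TMM scaling) in Tdrd6+/- and 11.35 and 12.5 CPM in Tdrd6-/- libraries, so each library matched its label. The 10 markers of late spermatocytes summed to 8607 to 9981 CPM, of which Hspa2 alone gave 2071 to 2305. The 12 spermatid markers summed to 20.1, 29.8, 35.6 and 29.9 CPM in the order Tdrd6+/- 1, Tdrd6+/- 2, Tdrd6-/- 1 and Tdrd6-/- 2, which is the order of libraries used throughout. The late spermatid genes Prm1, Prm2, Tnp1 and Tnp2 were at or below 0.316 CPM in each library. Markers of spermatogonia summed to 24.2 to 33.2 CPM, of Sertoli cells to 81.7 to 103.2 and of Leydig cells to 17.6 to 22.9. Those of peritubular cells summed to 2.999 to 3.89 and of blood to 2.28 to 4.21. The Leydig sum included a row that joins Insl3 with another gene, at 7.94, 14.1, 13.0 and 12.3 CPM.

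The 10 genes fell into a high and a low set of 5 each in these libraries. Acr, Acrbp, Zpbp, Zpbp2 and Dpy19l2 lay between 91.95 and 493.2 CPM in every library, and Spaca1, Spaca3, Spaca4, Spaca7 and Izumo1 between 1.41 and 11.9. At a false discovery rate of 0.1 (Benjamini-Hochberg, edgeR's quasi-likelihood test), 1 of the 10 genes, Spaca1, differed between genotypes, and it was higher in Tdrd6-/- cells. Of all 16555 genes tested, 4.80% were called, and 1.02% were called as higher in Tdrd6-/- cells (169 of 794 calls, or 212 of 590 with library size alone in place of TMM). In the low set, Spaca1, Spaca3, Spaca4, Spaca7 and the row that joins Izumo1 with Rasip1 had both Tdrd6-/- libraries above both Tdrd6+/- libraries, an ordering seen in 20.1% of all tested genes. On the junctions of Izumo1 itself the genotypes overlapped, as did the libraries of the 5 genes of the high set. The median log2 fold change was 0.64 in the low set and -0.02 in the high set, against 0.01 over all tested genes, and the split into sets was made after the levels were seen.

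**Figure D1:**
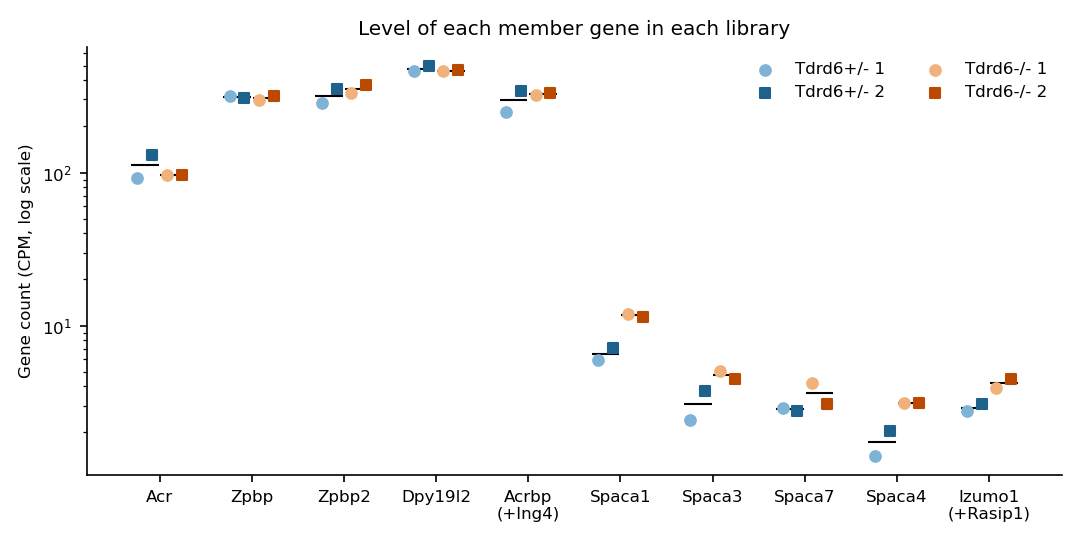
Gene count in CPM on a log axis for each of the 10 genes, with 1 point per library (circles and squares are replicates 1 and 2, blue Tdrd6+/-, orange Tdrd6-/-) and lines at the mean of each genotype. The 5 genes on the left lie at or above 91.95 CPM with overlapping genotypes, and the 5 on the right lie at or below 11.9 CPM with both orange points above both blue points, where the Izumo1 points are of the row joined with Rasip1 and its own junctions overlapped.

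Spaca1 encodes a membrane protein of the inner acrosome that is needed to shape the acrosome and the nucleus beneath it. The gene (ENSMUSG00000028264, mm10 chromosome 4, 34024874 to 34050191, minus strand) has 1596 bp of annotated exon. Its counts were 156 and 198 in Tdrd6+/- and 375 and 365 in Tdrd6-/- libraries. In CPM this was 5.96 and 7.11 against 11.9 and 11.4, so the genotypes did not overlap and the replicates lay close together. Spaca1 rose by 0.83 on the log2 scale (standard error, SE, of 0.22, adjusted p = 0.0359 by edgeR). The call was lost when any library but Tdrd6+/- replicate 2 was left out, with adjusted p of 0.111 to 0.156 in edgeR and log2 fold changes of 0.72 to 0.87. Counts on its 7 junctions, where a fragment joins exons, were 125 and 152 against 277 and 269, which is 5.12 ± 0.48 against 8.58 ± 0.25 CPM (SD, n = 2 each).

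Spaca3, Spaca4 and Spaca7 encode other proteins of the acrosome. SPACA3 is related to lysozyme, SPACA4 is a surface protein that helps sperm to bind the egg coat, and SPACA7 is released when the acrosome opens. Spaca3 (ENSMUSG00000053184, chromosome 11, 80858365 to 80867814, plus strand) had 2.41 and 3.73 CPM in Tdrd6+/- and 5.06 and 4.50 in Tdrd6-/- libraries, from 63 to 160 counts. Its log2 fold change was 0.64 (SE 0.28, adjusted p = 0.28 by edgeR). The Tdrd6+/- libraries had an SD of 0.94 CPM around 3.07 and the Tdrd6-/- libraries 0.40 around 4.78 (n = 2 each).

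Spaca4 (ENSMUSG00000070563, chromosome 7, 45725107 to 45725813, minus strand) is an intronless gene of 707 bp. It had 1.41 and 2.05 CPM against 3.10 and 3.12 CPM, from 37 and 57 against 98 and 100 counts. Its log2 fold change of 0.84 was as large as that of Spaca1, but with an SE of 0.31 it did not pass (adjusted p = 0.17 by edgeR). Spaca4 lies inside Fam83e, which runs on the opposite strand and had 1.45 and 1.51 against 2.15 and 1.53 CPM. The 2 genes have rows of their own, and of 741 joined rows with all genes annotated, 737 held genes of a single strand. Whether strand was used in counting is not stated, so fragments of the 2 genes cannot be told apart with certainty.

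Spaca7 (ENSMUSG00000010435, chromosome 8, 12573029 to 12600744, plus strand) had 2.90 and 2.76 CPM against 4.21 and 3.06 CPM. The second Tdrd6-/- library was thus only just above the Tdrd6+/- libraries, and the log2 fold change was 0.36 (SE 0.28, adjusted p = 0.644 by edgeR). The antisense RNA gene D630011A20Rik, which overlaps its start, had at most 2 counts in a library.

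Izumo1 (ENSMUSG00000064158, chromosome 7, 45621811 to 45628823, plus strand) was deposited in a joined row with Rasip1, an overlapping gene on the same strand. The joined row had 2.75 and 3.05 CPM in Tdrd6+/- and 3.89 and 4.50 CPM in Tdrd6-/- libraries, with a log2 fold change of 0.53 ± 0.27 (SE, adjusted p = 0.384 by edgeR). The 10 junctions of Izumo1 itself, told from those of Rasip1 by their order in the annotation, had 20 and 41 counts against 69 and 43. On these the genotypes overlapped in CPM, at 0.76 and 1.47 against 2.18 and 1.34. The 11 junctions of Rasip1 had 8 and 6 against 7 and 10 counts. With the own junctions in place of the joined row, the log2 fold change of Izumo1 was 0.65 (SE 0.38, adjusted p = 0.49 by edgeR).

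In the high set, Acr encodes acrosin, the main protease of the acrosome, and Acrbp the protein that binds its precursor. Acr (ENSMUSG00000022622, chromosome 15, 89568326 to 89574585, plus strand) had 91.95 and 130.6 CPM in Tdrd6+/- and 96.4 and 96.2 CPM in Tdrd6-/- libraries. The Tdrd6-/- libraries lay within the range of the Tdrd6+/- ones, and the log2 fold change was -0.21 (SE 0.15, adjusted p = 0.606 by edgeR). Acrbp (ENSMUSG00000072770, chromosome 6, 125049689 to 125063267, plus strand) was joined with Ing4 in a row of 250.2 and 342.1 against 319.7 and 330.2 CPM (log2 fold change 0.13 ± 0.14 SE, adjusted p = 0.771 by edgeR). The 11 junctions of Acrbp itself had 108.7 and 153.6 against 140.8 and 146.7 CPM, while the 10 junctions of Ing4 had 11.04 to 12.9. Most of the joined row was therefore Acrbp, and its own junctions gave a log2 fold change of 0.13 ± 0.15 (SE, adjusted p = 0.782 by edgeR).

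Zpbp and Zpbp2 encode related proteins of the acrosomal matrix that bind the zona pellucida, the coat of the egg. Zpbp (ENSMUSG00000020193, chromosome 11, 11279626 to 11462408, minus strand) had 314.1 and 307.3 CPM against 298.8 and 314.0 CPM. The 4 libraries overlapped, with a log2 fold change of -0.02 ± 0.13 (SE, adjusted p = 0.971 by edgeR). Zpbp2 (ENSMUSG00000017195, chromosome 11, 98551097 to 98558665, plus strand) had 285.6 and 351.1 against 332.8 and 374.7 CPM, with a log2 fold change of 0.15 ± 0.14 (SE, adjusted p = 0.704 by edgeR). Spata48, which starts inside Zpbp on the opposite strand, had 1.38 to 2.81 CPM, far below Zpbp.

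Dpy19l2 encodes a protein of the inner nuclear membrane that holds the acrosome to the nucleus. Dpy19l2 (ENSMUSG00000085576, chromosome 9, 24557047 to 24696293, minus strand) was the highest of the 10 in CPM, with 461.6 and 493.2 against 459.9 and 464.5. Its log2 fold change was -0.05 (SE 0.13, adjusted p = 0.923 by edgeR). Cypt4, a small gene inside Dpy19l2 on the opposite strand, had 0.61 and 0.75 against 1.83 and 1.69 CPM and was called higher in Tdrd6-/- cells (log2 fold change 1.36 ± 0.37 SE, adjusted p = 0.0461 by edgeR). That call was lost when any 1 library was left out.

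Per kb of annotated exon, the 8 genes with a row of their own kept the same order of high over low. In Tdrd6+/- cells Zpbp2 had 189.1 ± 27.5 CPM per kb, Dpy19l2 138.7 ± 6.50, Zpbp 73.1 ± 1.13 and Acr 71.0 ± 17.5 (SD, n = 2 each). Zpbp and Acr did not differ beyond their spread. Spaca1 followed with 4.09 ± 0.51 CPM per kb, Spaca3 with 3.23 ± 0.99, Spaca7 with 2.89 ± 0.10 and Spaca4 with 2.45 ± 0.63. The spreads of neighbours in this order overlapped, also those of Spaca1 and Spaca3. In Tdrd6-/- cells Spaca1 had 7.29 ± 0.20 CPM per kb, Spaca3 5.03 ± 0.42, Spaca4 4.40 ± 0.03 and Spaca7 3.71 ± 0.83.

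**Figure D2:**
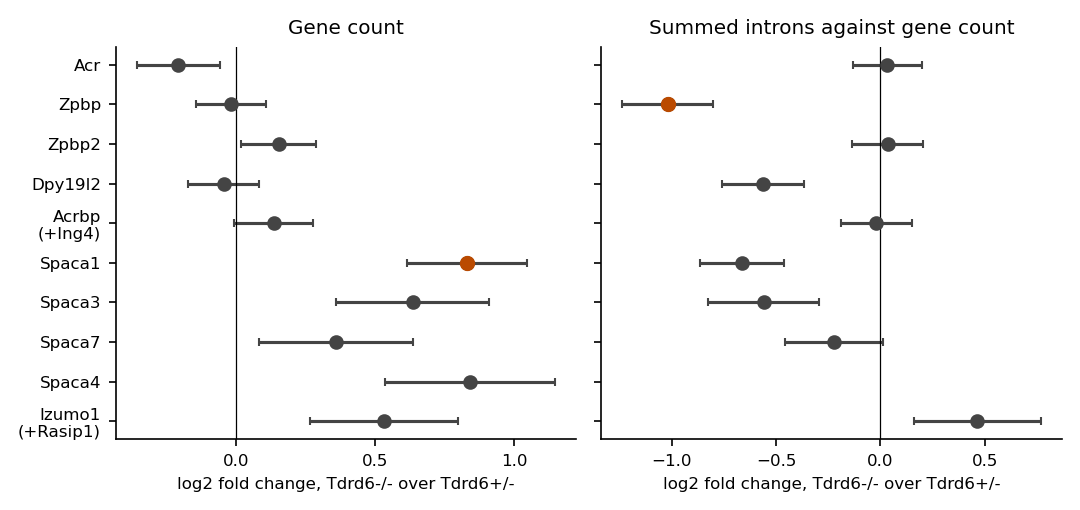
The log2 fold change of Tdrd6-/- over Tdrd6+/- cells (points) with its standard error (bars) for the gene count (left) and for the summed introns against the gene count (right), with called genes in orange. Spaca1 at 0.83 is called on the left and Zpbp at -1.02 on the right, and Spaca4 has no introns.

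A list of 56 other genes of the acrosome and fusion was compared in the same fit, of which 53 had a row and 48 were tested. In this list 8 genes were called higher in Tdrd6-/- cells and 1 lower, beside 4.80% called among all genes. The 4 higher genes with the smallest adjusted p by edgeR were Galntl5, of the glycosyltransferase family, Fam170b, an acrosomal protein gene, Spam1, the sperm hyaluronidase, and Actl7a, an actin-related gene of the sperm head. Galntl5 had 0.88 and 1.15 CPM in Tdrd6+/- and 3.76 and 3.28 CPM in Tdrd6-/- libraries (log2 fold change 1.79, adjusted p = 0.002 by edgeR). Fam170b had 3.55 and 4.24 against 9.39 and 7.81 CPM (1.14 on the log2 scale, adjusted p = 0.00852 by edgeR). Spam1 had 1.60 and 2.37 against 5.98 and 3.81 CPM (1.30 on the log2 scale, adjusted p = 0.0172 by edgeR), and Actl7a 3.13 and 5.03 against 8.32 and 7.56 CPM (0.96 on the log2 scale, adjusted p = 0.0402 by edgeR). Clgn, a chaperone of the endoplasmic reticulum, was the 1 gene lower, at 932.3 and 964.9 against 613.7 and 557.4 CPM (log2 fold change -0.70, adjusted p = 0.00269 by edgeR). The higher calls depended on single libraries. Without Tdrd6+/- replicate 1, 2 of these 8 genes were still called, Galntl5 and Fam170b, and without Tdrd6-/- replicate 1, 3 were, with Actl7a added. Without Tdrd6+/- replicate 2, 7 of the 8 were called, and without Tdrd6-/- replicate 2 all 8 were.

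The split by level, made after the levels of the 10 genes were seen, was applied to this list as well. The list was also chosen with earlier results of these data known, so it is no independent check of the low set. Below a mean of 20 CPM, 25 of 31 genes of the list and 5 of 5 of the low set had a log2 fold change above 0, with medians of 0.68 and 0.64. Of all 10131 tested genes at that level, 55.3% were above 0, with a median of 0.05. At or above 20 CPM, 11 of 17 genes of the list and 2 of 5 of the high set were above 0, with medians of 0.11 and -0.02, against 45.9% of 6424 genes. Of the 12 spermatid markers 8 were tested and 8 had a log2 fold change above 0, with a median of 0.41, and edgeR called 0 of them (2 had an unadjusted p under 0.05). Their libraries did not overlap, with Tdrd6-/- higher, in 2 of the 8, beside 20.1% of all tested genes. Prm1, Prm2, Tnp1 and Tnp2 were too low to be tested, and the part of spermatids in the result was not tested. More such cells and more RNA of these genes per cell cannot be told apart in bulk libraries. The 8 tested spermatogonium markers and 8 Sertoli markers were above 0 in 7 cases each, with medians of 0.32 and 0.27 and 0 called by edgeR (2 in each list had an unadjusted p under 0.05). Libraries did not overlap, with Tdrd6-/- higher, in 5 of the 8 spermatogonium and 4 of the 8 Sertoli markers, beside the same 20.1%. With Tdrd6-/- lower, this held for 0 and 1 of them. In the Leydig, peritubular and blood lists, edgeR called 0 of 11 tested markers, and 0 had an unadjusted p under 0.05. Of the 10 late spermatocyte markers edgeR called 3, beside 4.80% of all tested genes, with Sycp1 and Sycp2 higher and Piwil1 lower.

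**Figure D3:**
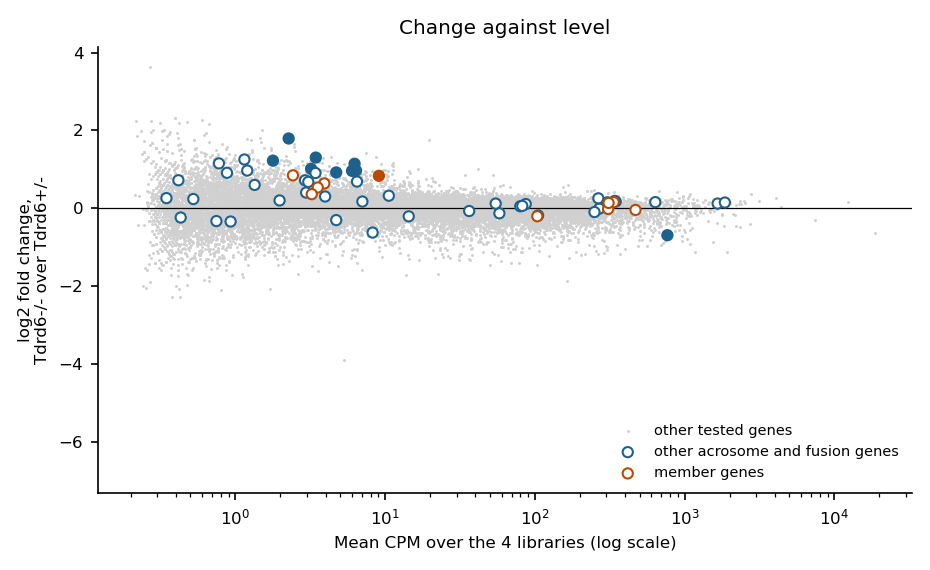
The log2 fold change of Tdrd6-/- over Tdrd6+/- cells against the mean CPM of the 4 libraries (log axis) for all 16555 tested genes (grey), the 48 tested genes of the wider acrosome and fusion list (blue) and the 10 genes (orange), filled where called by edgeR. Below 20 CPM the filled blue and orange points lie above 0, and Clgn is the filled point below 0 at the high end.

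Intronic counts came from fragments on introns. They can stand for RNA that is not yet spliced or keeps an intron, or for another transcript inside the intron. These sources were not told apart. The 10 genes had 73 deposited introns, none of them in Spaca4. The summed introns of each gene were set against its gene count, and the change in this ratio between genotypes was tested with edgeR. Of the 9 genes with introns 1, Zpbp, was called, beside 1.88% of 15926 gene rows. Of all 300 calls 114 were higher in Tdrd6-/- cells, or 198 of 330 with library size alone. On simulated counts this test found 31.5% of genes changed by 1 on the log2 scale, so a gene not called may still differ. Over all genes, introns had 52.7, 41.9, 42.5 and 30.6 counts per 100 gene counts in the 4 libraries, so Tdrd6+/- replicate 1 was the highest and Tdrd6-/- replicate 2 the lowest before scaling.

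Zpbp had 9267 and 4379 intron counts in Tdrd6+/- and 3556 and 2479 in Tdrd6-/- libraries, or 112.7 and 51.2 against 37.6 and 24.7 per 100 gene counts. Scaled within each count type, its introns fell by 1.02 on the log2 scale against its gene count (SE 0.22, adjusted p = 0.0104 by edgeR), while its gene count had a log2 fold change of -0.02. The 4 libraries kept this order in both measures, with the first Tdrd6+/- library far above the rest. Without that library the log2 fold change was -0.53 and the call was lost (adjusted p = 0.621 by edgeR).

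Dpy19l2 had 95.2 and 62.3 against 50.4 and 35.7 intron counts per 100 gene counts (log2 fold change -0.56 ± 0.20 SE, adjusted p = 0.187 by edgeR). Spaca1 had 132.1 and 119.2 against 73.6 and 56.4 (-0.66 on the log2 scale, SE 0.20, adjusted p = 0.107 by edgeR), and Spaca3 127.0 and 124.0 against 75.6 and 64.6 (-0.56, SE 0.26, adjusted p = 0.394 by edgeR). In Spaca1 the intron counts themselves, 206 and 236 against 276 and 206, overlapped between genotypes, while the gene count was called higher. Spaca7 carried the most intronic counts for its level, at 423.7 and 435.1 against 296.2 and 309.2 per 100 gene counts, and its change was -0.22 (SE 0.23, adjusted p = 0.764 by edgeR).

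The introns of Acr, Zpbp2 and the Acrbp row were few for their gene counts. Acr had 23.2 and 17.7 against 17.4 and 16.3 intron counts per 100 gene counts, Zpbp2 13.0 and 11.4 against 11.4 and 8.96, and the Acrbp row 10.7 and 8.89 against 8.63 and 7.13. Their log2 fold changes after scaling were 0.03, 0.03 and -0.02, with adjusted p of 0.961, 0.961 and 0.978 by edgeR. The Izumo1 row rested on 41 to 89 intron counts and had a log2 fold change of 0.46 ± 0.31 (SE, adjusted p = 0.587 by edgeR).

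**Figure D4:**
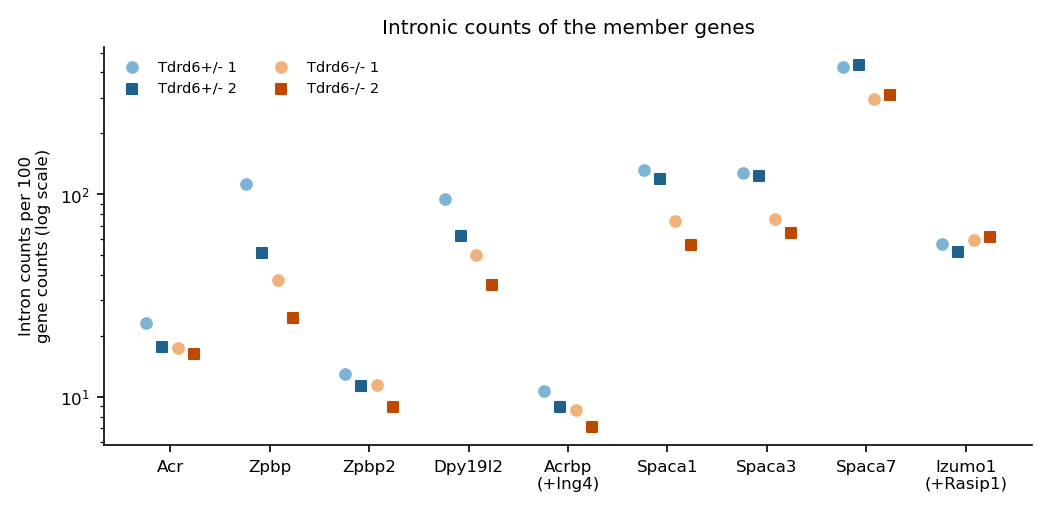
Intron counts per 100 gene counts (log axis, before scaling) for the 9 genes with introns, with 1 point per library. Zpbp ranges from 112.7 in the first Tdrd6+/- library to 24.7 in the second Tdrd6-/- library, while Zpbp2 and the Acrbp row stay below 13.0 in all 4.

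Single introns were tested for usage, which is the count of an intron against the other introns of its gene, with the model of DEXSeq fitted in DESeq2. Of the 73 introns 69 had 10 or more counts and 37 passed the filter on the mean count. Of these 37, 1 was called, beside 1.91% of 28903 introns. It was the first intron of the Zpbp transcript (chromosome 11, 11459780 to 11462063, 2284 bp). Its counts were 126 and 106 in Tdrd6+/- and 132 and 117 in Tdrd6-/- libraries, so its own counts overlapped between genotypes. Its share of all Zpbp intron counts was 1.36% and 2.42% against 3.71% and 4.72%, and usage was higher in Tdrd6-/- cells by 1.25 on the log2 scale (adjusted p = 0.00526 by DESeq2). Against the gene count in place of the other introns the log2 fold change was 0.20 (adjusted p = 0.821 by DESeq2). The call was lost without Tdrd6+/- replicate 1 (0.81 on the log2 scale) and without Tdrd6-/- replicate 2 (1.07 on the log2 scale).

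The difference in Zpbp introns was larger in the longer ones. The 3 introns over 10000 bp had 8435 and 3627 counts in Tdrd6+/- and 2836 and 1806 in Tdrd6-/- libraries, and the 3 introns of at most 5000 bp had 619 and 615 against 605 and 561. All introns of the libraries together had 13937818 and 12258600 against 12953528 and 9603669 counts. The ratio of Tdrd6+/- to Tdrd6-/- means, not scaled for these totals, was 2.60 for the long and 1.06 for the short Zpbp introns. The first ratio rested on Tdrd6+/- replicate 1, which had 2.33 times the long-intron counts of replicate 2, and without it the ratios were 1.56 and 1.05. The largest was the last intron of the transcript, of 69824 bp, with 4821 and 1710 against 1431 and 869 counts and a usage change of -0.47 (adjusted p = 0.396 by DESeq2). When the intronic test was run with introns of at most 5000 bp alone, a choice made after the data were seen, Zpbp had a log2 fold change of -0.08 (adjusted p = 0.91 by edgeR).

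Over all placed introns another library stood apart. Introns over 10000 bp took 41.2% and 39.5% of the counts of placed introns in Tdrd6+/- and 39.0% and 32.3% in Tdrd6-/- libraries, so Tdrd6-/- replicate 2 was the lowest and the others lay close together. The ratio of genotype means, again not scaled, was 1.29 for these long introns and 1.04 for those of at most 5000 bp. Without Tdrd6-/- replicate 2 these ratios were 1.04 and 0.96. Tdrd6+/- replicate 1 had 1.18 times the long-intron counts of replicate 2. The part of intron length in the Zpbp result was not tested beyond these values.

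None of the 19 introns of Dpy19l2 that were tested, of 21, was called. Its 5 introns over 10000 bp had 7178 and 4998 against 4025 and 2587 counts, a ratio of genotype means, not scaled, of 1.84. Its 14 introns of at most 5000 bp had 3389 and 2757 against 2540 and 2130, a ratio of 1.32. The 2 introns between these lengths had a ratio of 1.28, so the ratio did not grow steadily with length. Of its introns 7 had an unadjusted p under 0.05, and DESeq2 called 0. Those with lower usage in Tdrd6-/- cells were 30374 and 11262 bp long, and those with higher usage 1532 to 9243 bp. Usage is relative to the other introns of the gene, so these are not separate results. Its intron with the most counts, the 16th of the transcript with 30374 bp, had 2667 and 1709 against 1375 and 872 counts and a usage change of -0.37 (adjusted p = 0.368 by DESeq2).

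**Figure D5:**
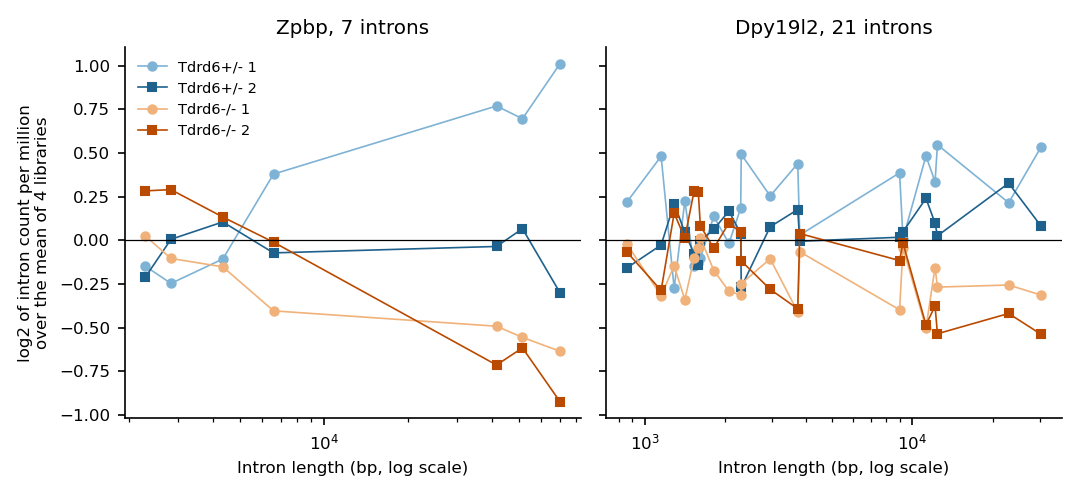
For each intron of Zpbp and Dpy19l2, the log2 of its count, scaled to the intron total of the library, over the mean of the 4 libraries, against intron length (log axis). In Zpbp the first Tdrd6+/- library rises and both Tdrd6-/- libraries fall with length. They go from -0.15, 0.03 and 0.28 at 2284 bp to 1.01, -0.64 and -0.92 at 69824 bp. In Dpy19l2 the genotypes part in the longest introns, but also in some short ones. At 1153 bp they have 0.48 and -0.03 against -0.32 and -0.29, while at 9243 bp all libraries lie between -0.04 and 0.05.

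In the other genes the intron with the most counts showed no called difference in usage. In Acr this was the third of 4 introns, of 3089 bp, with 423 and 411 against 377 and 350 counts and a log2 fold change of 0.04 (adjusted p = 0.99 by DESeq2). In Zpbp2 it was the fifth of 6, of 1928 bp, with 278 and 341 against 354 and 321 counts and a change below 0.01 in size. In Spaca1 it was the first of the transcript, of 5504 bp, with 76 and 92 against 113 and 84 counts (0.18 on the log2 scale, adjusted p = 0.928 by DESeq2). In Acrbp it was intron 4, with 305 and 362 against 358 and 276 counts (-0.25 on the log2 scale, adjusted p = 0.768 by DESeq2), and in Spaca7 intron 2, with 142 and 144 against 184 and 123 counts (0.02 on the log2 scale, adjusted p = 0.996 by DESeq2). The introns of these last genes could not be placed, since the annotation has another number of gaps. In Spaca3 the first intron had 35 and 53 against 62 and 47 counts, and in Izumo1 the first had 18 and 10 against 19 and 28, both too low for an adjusted p.

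Usage of exon segments and junctions was tested with the model of JunctionSeq fitted in DESeq2, leaving out the joined rows of Acrbp and Izumo1. Of the 148 features of the other genes with 10 or more counts, 99 passed the filter on the mean count and 0 were called, beside 0.221% of 147710 features. By unadjusted p under 0.05 there were 11, of which 6 were in Zpbp2, 3 in Acr and 2 in Zpbp, and edgeR also called 0, with 15 under 0.05. The smallest p was in Acr, whose exon segment 5, the last, took 39.9% and 40.6% of the gene count in Tdrd6+/- and 46.1% and 47.5% in Tdrd6-/- libraries (log2 fold change 0.38 ± 0.11 SE, adjusted p = 0.147 by DESeq2). Its segment 3 took 49.0% and 49.6% against 44.1% and 43.9% (-0.31 on the log2 scale, adjusted p = 0.495 by DESeq2). Both segments of Acr had genotypes that did not overlap, with a difference that did not pass. They are named here for their small unadjusted p, so the lack of overlap adds no support. On simulated counts this test found 33% of features changed by 1 on the log2 scale, so 0 calls do not show unchanged usage.

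The junction across the called first intron of Zpbp could be read against that intron. It had 324 and 402 counts in Tdrd6+/- and 478 and 589 in Tdrd6-/- libraries, which is 3.94% and 4.70% against 5.06% and 5.86% of the gene count. The genotypes did not overlap, with a log2 fold change of 0.36 ± 0.14 (SE, adjusted p = 0.795 by DESeq2). In Zpbp2 the 6 features under 0.05 all lay at the 5′ end of the gene, between 98551150 and 98551508 on chromosome 11, and had log2 fold changes of 0.24 to 0.42, with adjusted p of 1.0 by DESeq2. The 21 annotated junctions of Dpy19l2 summed to 365.0 and 397.0 against 367.6 and 379.4 CPM, and the smallest unadjusted p among its features was 0.0507.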

How the data were processed

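RNA depleted of ribosomal RNA was sequenced from hCD4+ testis cells as 2 Tdrd6+/- and 2 Tdrd6-/- libraries of pooled mice, with a kit that marks strand. The authors deposited raw counts, not normalized, of fragments on numbered introns and on genes, exon segments and junctions, which the study aligned to mm10 with GSNAP and annotated from Ensembl, with bcl2fastq 1.8.4 named in the submitters' processing notes. The deposited files give no coordinates, and whether strand was used in counting is not given in the sources used here. Overlapping genes are joined in 940 rows, which holds for Acrbp and Izumo1. In 741 of these rows all genes were annotated, and 737 held genes of a single strand and 4 of both strands.

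Groups and replicate numbers were read from the sample titles. Introns and junctions were placed by their order on GENCODE M21 where the numbers matched. Gene counts and the interaction of intron and gene counts with genotype were tested with edgeR 4.0.16 (TMM, quasi-likelihood test, filterByExpr for genes, at least 10 counts in total for introns) in R 4.3.3. Usage of introns and of exon segments and junctions was tested with DESeq2 1.42.0 as a likelihood ratio test of own and remaining counts, after DEXSeq and JunctionSeq, which are not installed. Independent filtering kept mean counts above 86.7 for introns and 53.6 for exon segments and junctions. All fits covered all features, with Benjamini-Hochberg adjustment over them at a false discovery rate of 0.1. Nothing says whether replicates are separate pools of animals, so p-values cover the spread between these libraries. Replicates differed by more than sampling noise (chi-square per degree of freedom 20.3 and 17.8). The fitting functions of the tests were run on simulated counts with a fixed dispersion, and the other scripts were not. In each run 200 well-counted features were changed by a known fold. At a log2 change of 1, the gene test found 85.5% of them and the intron usage test 76%. The exon and junction test found 33% and the intronic test 31.5%, and at a log2 change of 2 they found 95% and 99.5%. For both of these tests a count and the count it is set against were drawn independently. Variation that the pair shares within a library, beyond its size, was therefore left out.

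The 10 genes and the gene lists were chosen with earlier results of these data known. Named are all 10 genes, the intron of each with the most counts, up to 8 called features of each kind, Tdrd6, up to 4 called genes per direction of the wider acrosome list, the markers and the genes overlapping the 10. Of the wider list, 1700034O15Rik and Fimp were not matched by symbol and Dcst2 had no row. Markers of late spermatocytes, spermatids, spermatogonia, Sertoli, Leydig, peritubular and blood cells were summed. Alternatives were the other tool, other scaling and filters, a false discovery rate of 0.05, the gene count as reference, a replicate block, and leaving out each library. Added after seeing the data were own junctions for joined rows, scaling by intron length, another dispersion trend, introns of at most 5000 bp and crossed pairing. Promoters were taken from RefSeq (GRCm38.p6).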

Additional observations from a re-analysis of the deposited data

How the results depend on the processing

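The number of the 10 genes called by gene count was 1 at a false discovery rate of 0.05, with DESeq2, with library size alone, with own junctions for joined rows and with a replicate block, 0 without a filter on low counts, and 0 to 1 when 1 library was left out. Introns called for usage numbered 1 in the reported fit, 2 with edgeR, 7 against the gene count, 4 with the replicate block, 0 with a dispersion trend over both counts, and 0 to 4 when 1 library was left out. The whole set of called introns was 553 of 28903 tested. It was 338 of 128748 with edgeR, 1263 of 29521 against the gene count and 881 of 36391 with the replicate block. With the dispersion trend over both counts it was 1 of 128748. The edgeR intronic test called 1 of the 9 genes, DESeq2 and the fit without a filter 2, the fit on introns of at most 5000 bp 0, and the fits without 1 library 0 to 2. Exon segments and junctions gave 0 under every alternative run.

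The replicate block changed no other call among the 10 genes, and the labels do not state that a number marks a shared litter. Deviations of same-numbered libraries correlated at -0.12 over genes and 0.04 over introns. With crossed pairing as the block, 2 genes were called by gene count, with 1175 genes called in all against 794 and 1046 with the numbers as given.

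The count of all called genes was 75 without a filter on low counts and 257 without Tdrd6-/- replicate 2, and the share of higher calls moved from 169 of 794 to 212 of 590 with library size alone. The whole sets called also differed from the reported 300 in the intronic test without Tdrd6+/- replicate 1 (59), without Tdrd6-/- replicate 1 (1127), without Tdrd6-/- replicate 2 (178), on introns of at most 5000 bp (92) and with crossed pairing (121). For introns they were 1263 against the gene count, 881 with the replicate block, 338 with edgeR, 220 without independent filtering and 1 with the trend over both counts, and for exon segments and junctions 508 with edgeR and 62 with that trend, against 327. Leaving out Tdrd6+/- replicate 1, Tdrd6+/- replicate 2, Tdrd6-/- replicate 1 and Tdrd6-/- replicate 2 in turn gave 66, 763, 166 and 51 exon segments and junctions and 4, 334, 1186 and 12 introns, so the shares of called features given beside the 10 genes depend on single libraries. The cause of these shifts was not tested.

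No called value changed direction. Among values not called, by gene count Zpbp had 0.0621 with library size alone, 0.0055 without a filter and -0.0476 to 0.0152 without 1 library. Dpy19l2 had 0.0371 with library size alone and -0.082 to 0.0043 without 1 library. Without 1 library Acr had -0.428 to 0.069 and Acrbp -0.0624 to 0.38, with Tdrd6+/- replicate 1 or 2 the one left out. In the intronic test, introns of at most 5000 bp gave Acr -0.0421, Acrbp 0.0139 and Zpbp2 -0.042, library size alone gave Acrbp 0.0584, and leaving out 1 library gave Acr -0.125 to 0.195, Acrbp -0.0897 to 0.0532 and Spaca7 -0.447 to 0.0329. For usage against the gene count, the leading introns of Spaca1, Spaca3, Spaca7 and Zpbp2 had -0.543, -0.275, -0.201 and 0.0488. The Zpbp2 intron had 0.00016 with the replicate block, 0.0323 with scaling by intron length and -0.0692 to 0.0698 without 1 library, and leaving out 1 library gave Acr -0.395 to 0.427, Spaca7 -0.174 to 0.184 and Izumo1 -1.21 to 0.43 for theirs.

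Spaca1, Spam1, Fam170b and Actl7a were not called without a filter on low counts (adjusted p of 0.232, 0.252, 0.146 and 0.31 by edgeR), nor was Clgn (0.103), and Dpy19l2 passed the intronic test with DESeq2 (adjusted p = 0.0916). The genes of the low set had 37 to 375 counts per library, the range in which their tests were made.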
